A study of Mus musculus with 19 samples.

Results

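The expression of 10 genes that mark microglia was followed across the layers of the mouse primary somatosensory cortex (S1): the receptors Csf1r, Cx3cr1, P2ry12, Itgam and Emr1, the complement chains C1qa, C1qb and C1qc, and Aif1 and Tmem119. They were chosen by name, and all 10 genes were found among the 24130 genes listed in at least 1 S1 library. Polyadenylated RNA came from male C57BL/6J mice at postnatal day 56, cut into 6 adjacent segments. By their labels A was mostly layers 1 to 3, B was mostly layer 4, C and D were mostly layer 5 (its upper and lower parts, as the study describes the dissection), E mostly layer 6 and F mostly layer 6b. B1 and B2 were 2 libraries of segment B, from pools of 4 littermates apiece, whereas RNA of all 8 mice, both litters together, was pooled into a single library for each of the other 5 segments. Only B1 and B2 were therefore replicates, every segment came from the same animals, and the 12 samples of dorsal and lateral cortex were not analysed here.

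Microglia are the resident macrophages of the brain. They depend on signalling through the receptor Csf1r for survival, sense the neuronal chemokine fractalkine through Cx3cr1 and sense nucleotides released by other cells through P2ry12. Itgam (CD11b) is the alpha chain of complement receptor 3, Emr1 (F4/80, named Adgre1 in newer annotations) is an adhesion receptor of macrophages, Aif1 (Iba1) is a calcium-binding protein of the cytosol, and Tmem119 is a membrane protein that separates microglia from most other macrophages. C1qa, C1qb and C1qc encode the 3 chains of C1q, the molecule that starts the classical complement cascade, and in the brain microglia are their main source. In bulk tissue, fewer microglia and less RNA per microglial cell cannot be told apart.

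Levels are FPKM, fragments per kilobase of gene model scaled to the number of mapped fragments, over the exons of Ensembl models, each with a 95% interval that covers estimation from the reads and holds no variation between animals. The trend with depth is the slope of log2(FPKM + 0.1) per segment from A to F over all 7 libraries, tested by limma across 17844 genes with Benjamini-Hochberg adjustment at 0.05. Of these genes, 2209 (12.4%) were higher with depth and 453 (2.54%) were lower, and the median slope was 0.076 on the log2 scale. That share moved with single libraries: the count of genes higher with depth was 933 without B2, 868 without D, 637 without E and 495 without F.

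The libraries were not alike. Depth was estimated at between 31.6 M fragments (A) and 75.7 M (B2), and the mitochondrial genome took 21.8% of summed FPKM in A and 18.2% in B2 against 5.03% to 9.79% in the other 5. The median log2 ratio of 3′ to 5′ signal, over 417 genes whose de novo locus was listed in 2 pieces in every library, was -0.0083 in A and 0.033 in B2 against -0.48 to -0.32 in the other 5. In A, genes with models under 1500 nt stood at a median of 0.28 above the mean of C to F on the log2 scale, and genes of 3000 nt and over at -0.74. In the same classes B2 stood at -0.084 and -0.27, and B1 at -0.355 and -0.21. The labelled insert size ran from 164 nt in A to 239 nt in B1. By mitochondrial share and 3′ signal A and B2 thus stood apart from the rest, and by model length A did. The counts of genes with a trend are also given without A and B2. Part of F was also sequenced with longer reads, which cannot be told apart from the segment.

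Upstream sequence is shown for 2 receptor genes that rose with depth and for 2 neighbouring C1q genes whose profiles parted in A, with the letters GAGGAA, the core of sites for the myeloid factor PU.1 (Spi1), in capitals on either strand. The windows are the 250 bases before the gene start from RefSeq on GRCm38.p6, a later build than the mm9 positions given elsewhere, read 5′ to 3′ on the gene's strand: chr7:128062390-128062639 (plus strand) for Itgam, chr9:120068297-120068546 (minus) for Cx3cr1, chr4:136886201-136886450 (minus) for C1qb and chr4:136892915-136893164 (minus) for C1qc.
Itgam: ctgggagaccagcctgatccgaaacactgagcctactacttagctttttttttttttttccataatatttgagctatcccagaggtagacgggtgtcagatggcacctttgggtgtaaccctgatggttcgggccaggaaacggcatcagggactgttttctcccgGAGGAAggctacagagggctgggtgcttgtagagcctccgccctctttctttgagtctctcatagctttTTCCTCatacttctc
Cx3cr1: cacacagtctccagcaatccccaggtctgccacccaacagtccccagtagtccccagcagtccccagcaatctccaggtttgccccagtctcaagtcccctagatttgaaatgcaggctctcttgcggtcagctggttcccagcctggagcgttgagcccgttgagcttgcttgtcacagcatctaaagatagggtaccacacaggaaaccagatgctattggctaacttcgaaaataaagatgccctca
C1qb: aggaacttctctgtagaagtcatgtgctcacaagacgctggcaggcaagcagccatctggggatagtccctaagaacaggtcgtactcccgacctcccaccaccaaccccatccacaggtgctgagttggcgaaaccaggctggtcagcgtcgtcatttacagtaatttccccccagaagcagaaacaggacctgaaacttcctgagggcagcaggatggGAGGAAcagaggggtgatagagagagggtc
C1qc: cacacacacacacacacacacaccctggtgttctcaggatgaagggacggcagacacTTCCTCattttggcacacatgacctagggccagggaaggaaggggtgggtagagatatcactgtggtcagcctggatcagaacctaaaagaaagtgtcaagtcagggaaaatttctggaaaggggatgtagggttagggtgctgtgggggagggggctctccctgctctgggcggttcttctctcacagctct
Itgam held 2 matches, C1qb and C1qc 1 each and Cx3cr1 0. Of the 6 members with a promoter in the table, Aif1 also held 1 match and P2ry12 held 0, and 23.3% of all 32851 promoters held at least 1. A match describes letters in the window and marks neither a site nor its use.

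In the fit over all 7 libraries, all 5 receptor genes rose with depth. Csf1r (ENSMUSG00000024621, chromosome 18, 61265522 to 61290791, mm9), the receptor for Csf1 and Il34, stood at 7.95 FPKM in A, 11.04 and 7.94 in B1 and B2, and 14.2, 14.6, 17.4 and 23.4 from C to F. Its levels in C to F were above those in A, B1 and B2 with no overlap of intervals, while A overlapped B2. Its slope was 0.30 ± 0.052 (SE, 7 libraries; limma adjusted p = 0.0109), and F was 2.95 times A.

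Cx3cr1 (ENSMUSG00000052336, chromosome 9, 119957811 to 119977400), the fractalkine receptor, had 6.31 FPKM in A, 6.96 and 6.83 in B1 and B2, and 8.43, 9.53, 9.90 and 12.1 from C to F. A, B1 and B2 overlapped one another, each of B to C, C to D and E to F was a step up with intervals apart, and D and E overlapped. The slope was 0.19 ± 0.042 (SE, 7 libraries; limma adjusted p = 0.0273), with F at 1.92 times A.

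P2ry12 (ENSMUSG00000036353, chromosome 3, 59020196 to 59066747), a purinergic receptor of the resting microglial surface, had the steepest slope of the 10 genes. It had 1.05 FPKM in A (95% interval 0.850 to 1.25), 3.01 and 2.92 in B1 and B2, and 5.25, 5.83, 7.25 and 6.97 from C to F (6.51 to 7.43). The levels fell into a low value in A, a pair of near-equal values in B and 4 higher values from C on, and E and F overlapped. The slope was 0.47 ± 0.097 (SE; limma adjusted p = 0.0208), and F was 6.64 times A.

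Itgam and Emr1 were measured less precisely, with a widest interval of 109% and 145% of the mean, against 11.3% to 46.2% for the other 8 genes. Itgam (ENSMUSG00000030786, chromosome 7, 135206154 to 135270730) had 2.01 FPKM in A, 1.58 and 1.72 in B1 and B2, and 2.28, 2.67, 3.13 and 3.70 from C to F. Its intervals overlapped at every step between neighbouring segments, and its slope was 0.22 ± 0.057 (SE; limma adjusted p = 0.0392). Emr1 (ENSMUSG00000004730, chromosome 17, 57498114 to 57628671) had 0.227 FPKM in A (95% interval 0.144 to 0.310), 0.665 and 0.604 in B1 and B2, and 0.950, 1.18, 1.10 and 1.47 from C to F (upper bound 1.957). Only the step from A to B parted its intervals, and its slope was 0.37 ± 0.086 (SE; limma adjusted p = 0.0285).

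Tmem119 (ENSMUSG00000054675, chromosome 5, 114243742 to 114250375) ran like the receptors below B but missed the threshold. It had 3.52 FPKM in A, 4.99 and 2.98 in B1 and B2, and 4.59, 4.91, 5.65 and 7.71 from C to F, and the 2 libraries of segment B differed more than A and C did. The slope was 0.21 ± 0.061 (SE; limma adjusted p = 0.0541).

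**Figure D1:**
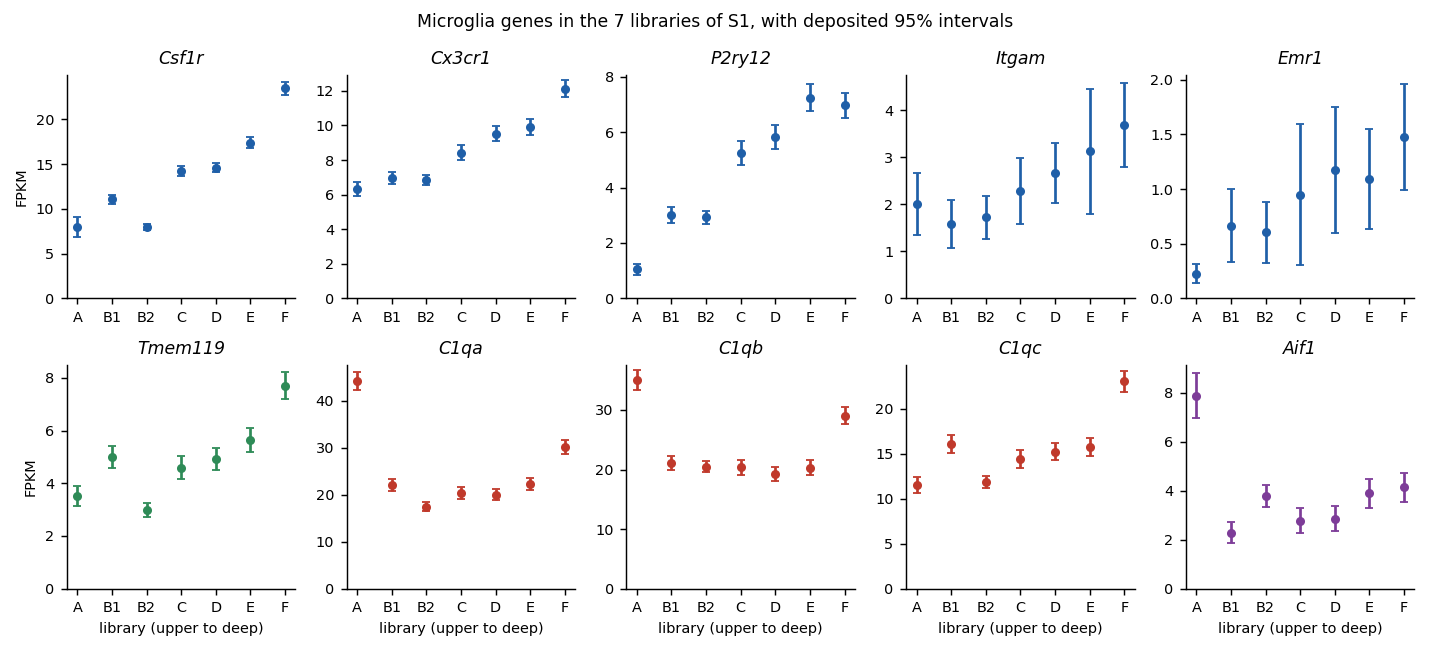
FPKM (y axis, linear, from 0, a scale of its own in each panel) of the 10 genes in the 7 libraries, ordered from upper to deep, with bars for the deposited 95% intervals. The 5 receptors (blue) and Tmem119 (green) were highest in E or F, while C1qa, C1qb (red) and Aif1 (purple) were highest in A and C1qc was highest in F.

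The C1q chains did not share this profile. C1qa (ENSMUSG00000036887, chromosome 4, 136451832 to 136454718) had 44.2 FPKM in A (95% interval 42.2 to 46.2), 22.0 and 17.4 in B1 and B2, 20.2, 22.3 and 30.1 (28.6 to 31.6) in C, E and F, and an interval of 18.8 to 21.2 in D. C1qb (ENSMUSG00000036905, chromosome 4, 136436044 to 136442102) had 35.0 FPKM in A (33.3 to 36.7), 21.1 and 20.5 in B1 and B2, and 20.4, 19.3, 20.3 and 29.1 from C to F (27.7 to 30.5). Both were highest in A, next highest in F and near level between, so a straight line described them poorly: the slopes were -0.035 ± 0.095 and -0.027 ± 0.074 (SE; limma adjusted p = 0.814 and 0.812).

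C1qc (ENSMUSG00000036896, chromosome 4, 136445719 to 136448980), whose gene lies between the other two, had 11.5 FPKM in A (95% interval 10.6 to 12.4), 16.1 and 11.9 in B1 and B2, and 14.4, 15.2, 15.8 and 23.1 from C to F (21.9 to 24.2). It was lowest in A, where its interval overlapped that of B2, and highest in F. The slope was 0.15 ± 0.052 (SE; limma adjusted p = 0.0787). The ratio of C1qa to C1qc was 1.30 to 1.47 in the 6 libraries from B1 to F and 3.84 in A, and that of C1qb to C1qc was 1.26 to 1.73 and 3.04. The 3 chains, which are assembled into a single protein, thus parted most in library A.

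Aif1 (ENSMUSG00000024397, chromosome 17, 35307937 to 35310223) had 7.89 FPKM in A (95% interval 6.98 to 8.80), 2.29 and 3.78 in B1 and B2, and 2.78, 2.86, 3.90 and 4.14 from C to F. A stood clear of every other library, and B2 stood above B1 with intervals apart. The slope was -0.063 ± 0.12 (SE; limma adjusted p = 0.723).

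Counted over all 10 genes, 5 were higher with depth, against 12.4% of all genes tested, and 0 were lower, against 2.54%. The median slope was 0.20, beside 0.076 for all genes. The 5 were the receptors, but other members passed in other settings. Without B1, Tmem119 and C1qc passed beside the 5. With B as the mean of B1 and B2, Tmem119 passed and Itgam did not. With values centred in bins of GC content, Csf1r, P2ry12, Tmem119 and C1qc passed. In bins of model length P2ry12 alone passed, and in joint bins of length and GC content Csf1r, P2ry12 and Tmem119 did. Cx3cr1 had slopes of 0.063 and 0.020 in these 2 settings (limma adjusted p = 0.375 and 0.805). Itgam had 0.074 and 0.054 (limma adjusted p = 0.543 and 0.661). Without A alone the same 5 receptors passed, with slopes from 0.19 (Cx3cr1) to 0.32 (P2ry12). The count of 5 was 4 without C (Itgam lost), 2 without B2, 2 without D (Csf1r and P2ry12 in both cases), 1 without E (Csf1r) and 1 without F (P2ry12). It was 0 without A and B2 together, with 5 libraries left, where only 100 genes of all were called. In that fit the slopes of the 5 receptors lay between 0.18 and 0.28 (limma adjusted p between 0.0579 and 0.119), and those of C1qa, C1qb and Aif1 turned positive, at 0.10, 0.092 and 0.21 (limma adjusted p = 0.288, 0.355 and 0.0866). After scaling by the median of ratios, which brought the median slope of all genes to -0.013, Csf1r (0.21, limma adjusted p = 0.046) and P2ry12 (0.38, 0.0375) remained past the threshold, while Cx3cr1 had 0.089 (0.192), Itgam 0.13 (0.211) and Emr1 0.29 (0.0607).

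Comparing the ends of the depth axis directly, 7 of the 10 genes were higher in F than in A with intervals apart, a call that 47.6% of all genes shared, and C1qa, C1qb and Aif1 were higher in A, as 23.5% were. For C1qa F was 0.681 times A, for C1qb 0.831 and for Aif1 0.524. Those 3 genes were also highest in A of all 7 libraries, which held for 24.4% of genes tested, while 6 were highest in F, which held for 28.3%. Intervals alone overstate such calls: between the replicate libraries, 23.1% of genes were higher in B1 and 25.3% in B2. Among the 10 genes 4 were higher in B1 (Csf1r, Tmem119, C1qa and C1qc) and Aif1 was higher in B2.

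Step by step, different genes changed at different places. The C1q chains parted their intervals only from A to B and from E to F, whereas receptors also did so between B and E. From A to B, with both B libraries apart from A, P2ry12 and Emr1 stepped up (29.8% of all genes did) and C1qa, C1qb and Aif1 stepped down (19.8%). From B to C, Csf1r, Cx3cr1 and P2ry12 stepped up (19.9% of all genes), from C to D Cx3cr1 alone (12.4%), and from D to E Csf1r and P2ry12 (19.1%). From E to F, 6 genes stepped up, against 22.5% of all genes: Csf1r, Cx3cr1, Tmem119 and the 3 C1q chains.

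Between C and F, receptors and complement differed by like amounts. All 10 genes had more FPKM in F than in C, by 1.33 times (P2ry12) to 1.68 times (Tmem119), where the median gene stood at 1.08 times, and 8 had intervals apart, against 30.5% of all genes. None was lower in F, as 17.4% of all genes were. The receptors were at 1.33 to 1.65 times and the C1q chains at 1.42 to 1.60 times, ranges that overlap. The way there differed: from D to E, Csf1r and P2ry12 stepped up and no C1q chain did, while from E to F all 3 C1q chains stepped up and P2ry12 had 7.25 and 6.97 FPKM, with intervals overlapping. F against C, chosen after the values were seen, avoids A and B2, and the count of 8 was 6 with intervals widened 2 times and 7 after scaling by the median of ratios.

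**Figure D2:**
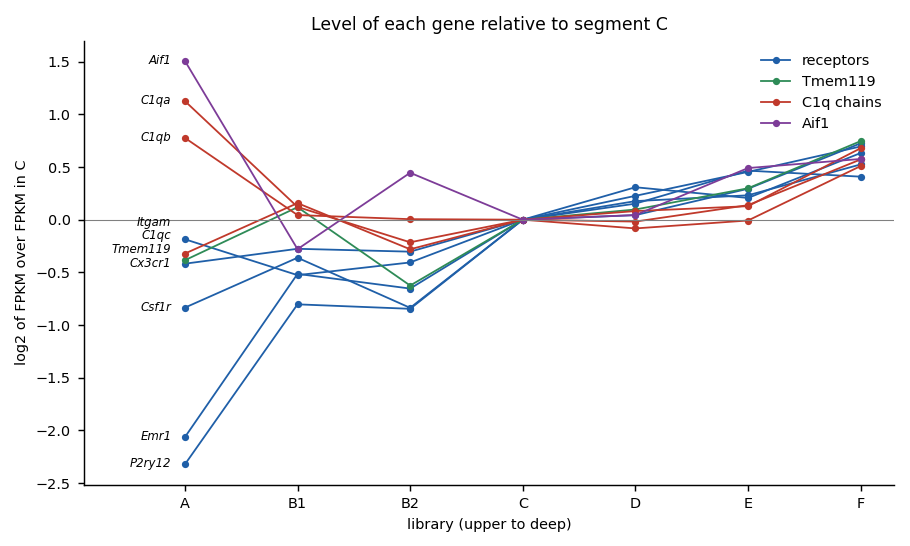
Log2 of FPKM over FPKM in C (y axis) for each of the 10 genes across the libraries (x axis, upper to deep), with 1 line per gene. The lines part between C and E and all end between 0.41 and 0.75 in F, while in A they spread from P2ry12 and Emr1 at the bottom to C1qb, C1qa and Aif1 at the top.

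The distance between both groups can be given as the mean log2(FPKM + 0.1) of the 3 C1q chains minus that of the 5 receptors. It was 3.64 in A, 2.64 and 2.48 in B1 and B2, and 2.05, 1.88, 1.82 and 2.06 from C to F. By geometric mean the chains thus stood at 12.5 times the receptors in A and at 3.53 to 4.17 times from C to F. F minus A was -1.58 and F minus C 0.0042, against a difference of 0.16 between B1 and B2. From C to F it spanned 0.24. Of a gene's expression over the 6 segments, A held 28.2% of C1qa, 24.2% of C1qb and 12.3% of C1qc, but 3.58% of P2ry12, 4.09% of Emr1, 9.13% of Csf1r and 11.9% of Cx3cr1. As listed, Itgam did not share this contrast, with a larger share in A than C1qc. Of its 2.01 FPKM in A, however, 1.03 was on a transcript of 477 nt that GENCODE M21 assigns to another gene. That transcript had 0.416 FPKM in B2 and was at 0 elsewhere. The share of Itgam in A without it was not computed, so this exception may rest on that transcript.

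Model length and position along the transcript moved with this contrast, and their part in it was not tested. The transcripts of Aif1 (849 nt), C1qa (1040 nt) and C1qb (1088 nt) are the shortest of the 10, and those of the receptors run from 2393 nt (P2ry12) to 4678 nt (Itgam). C1qc, at 1203 nt, is nearly as short but was lowest in A, with 11.5 FPKM there and 23.1 in F, and its intervals in A and B2 overlapped. Of all genes with models under 1500 nt 44.4% were highest in A, of those from 1500 to under 3000 nt 18.5% and of longer ones 10.4%. With values centred within bins of model length in each library, F minus A of the complement to receptor distance was -0.87, and within joint bins of length and GC content it was -0.34. In the joint bins C1qa had 31.4 FPKM in A and 30.3 in F, C1qb 25.2 and 28.5, Csf1r 9.74 and 20.2, P2ry12 1.93 and 5.80, Cx3cr1 10.4 and 9.64, and Itgam 3.35 and 2.92. So centred, Cx3cr1 and Itgam no longer had more FPKM in F than in A, whereas P2ry12, Csf1r, Emr1, Tmem119 and C1qc still did. The value of Itgam in A includes the transcript assigned to another gene, at 1.03 FPKM before centring. The choice of these bins was made after the values were seen.

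The Cx3cr1 locus showed a difference by position within a single gene. Its de novo model was split into a piece at the 3′ end (chromosome 9, 119957752 to 119958301) and the rest (119958346 to 119977385). The 3′ piece had 27.1 FPKM in A (95% interval 25.0 to 29.2), 7.72 and 13.4 in B1 and B2, and 9.62, 9.53, 9.02 and 11.4 from C to F. The rest had 2.71 FPKM in A (2.44 to 2.99), 6.88 and 5.73 in B1 and B2, and 8.29, 9.59, 10.1 and 12.3 from C to F. The 3′ piece was highest in A and the rest lowest there, so that their ratio was 9.99 in A and 2.34 in B2 but 0.892 to 1.16 in the other 5 libraries.

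**Figure D3:**
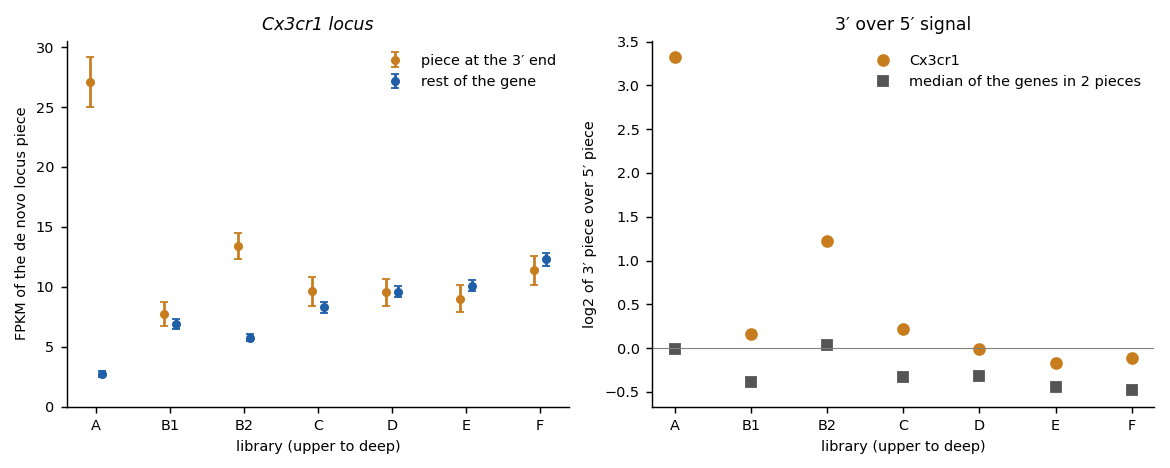
Left, FPKM (y axis, from 0, bars for 95% intervals) of the 3′ piece and of the rest of the Cx3cr1 de novo locus in each library; right, the log2 ratio of 3′ to 5′ piece for Cx3cr1 (circles) and its median over the 417 genes in 2 pieces (squares). Cx3cr1 reached 3.32 in A and 1.23 in B2 and lay between -0.16 and 0.22 elsewhere, and the median over genes was also highest in A and B2.

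C1qb gave a similar picture at its own 3′ end. A de novo locus over that end (chromosome 4, 136436015 to 136438236) had 22.1 FPKM in A, 4.61 and 9.01 in B1 and B2, and 7.85, 5.20, 4.91 and 8.83 from C to F. The locus over the whole gene (136436015 to 136442103) had 15.2 FPKM in A, 16.8 and 12.2 in B1 and B2, and 13.2, 14.4, 15.6 and 20.9 from C to F. The excess of C1qb in A was thus listed under the 3′ locus. In the whole-gene locus F was higher than A with intervals apart (18.5 to 23.4 against 13.3 to 17.2). These loci overlap, and how reads were shared between them was not tested. C1qc also had overlapping loci. The locus from 136445633 had 7.10 FPKM in A and 5.23 in F, and the other had 7.39 and 21.4. C1qa had a single locus, at 44.6 FPKM in A and 30.25 in F.

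Library A also differed in the transcripts to which FPKM was assigned. Csf1r was carried by ENSMUST00000115268 (3673 nt) in every library. In A a shorter transcript, ENSMUST00000091885 (2263 nt, not in GENCODE M21), was listed at 3.13 FPKM beside 4.82 for the longer one, whereas it was at 0 in the other 6. Counting the longer transcript alone, Csf1r ran from 4.82 FPKM in A to 23.4 in F. Leaving out the shorter one lowers Csf1r in A alone and so widens its difference between A and F. Itgam was spread over 5 transcripts, of which ENSMUST00000134694 (477 nt), at the 3′ side and assigned to another gene in GENCODE M21, made up 1.03 of its 2.01 FPKM in A and 0.416 in B2, and was at 0 in the other 5 libraries. ENSMUST00000126475 (4310 nt), which is not in M21, carried 2.09 of its 3.70 FPKM in F. Emr1 had 4 transcripts. In A all of its 0.227 FPKM was on ENSMUST00000086763 (2960 nt), which was at 0 in B1, B2 and F. Its other transcripts were at 0 in A, and ENSMUST00000004850 (2828 nt) carried 0.925 FPKM in F. The levels of Emr1 in A and in B or F were thus assigned to different transcripts. The 4 are of like length (2813 to 2960 nt), and ENSMUST00000086763 had 0.288 FPKM in C with an interval that reached 0. Whether the reads tell these transcripts apart was not tested. The other 7 genes had 1 transcript each.

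The same was done for 34 further genes of microglia, of which 3 were highest in A and 20 in F (24.4% and 28.3% of all genes tested). Of these 34, 15 were higher with depth, 0 were lower, and the median slope was 0.24, against 12.4% of all genes higher and a median of 0.076. The highest slopes among those of at least 1 FPKM were those of Gpr34, Slc2a5 and Sall1. Gpr34, a lysophosphatidylserine receptor, was not listed in A and was set to 0 there. It had 1.35 and 1.39 FPKM in B1 and B2, and 2.30, 2.22, 2.94 and 2.73 from C to F (slope 0.69, limma adjusted p = 0.0799). Slc2a5, a fructose transporter, had 0.312 FPKM in A and 1.82 in F (slope 0.45, limma adjusted p = 0.0148). Sall1, a transcription factor of microglial identity, had 0.798 in A and 5.71 in F (slope 0.42, limma adjusted p = 0.0171). The lowest slopes included those of Ltc4s and Mertk. Ltc4s, leukotriene C4 synthase, had 4.91 FPKM in A and 1.07 to 1.60 elsewhere (slope -0.17, limma adjusted p = 0.355). Mertk, a receptor for apoptotic cells, had 7.04 in A, 8.21 in B2 and 4.33 in F (slope -0.12, limma adjusted p = 0.167). Slc2a5 missed the threshold without E, and Sall1 without A and without F. The count of 15 was 9 without A, 8 without B2, 9 without D, 6 without E, 1 without F and 0 without A and B2.

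Over the 10 genes and these 34 together, 6 were highest in A, and all 6 had models under 1500 nt: Aif1, C1qa, C1qb, Ltc4s, Cd68, a lysosomal glycoprotein, and Fcer1g, an adaptor of Fc receptors. They made up 54.5% of the 11 microglia genes of that length, where 44.4% of all genes tested were highest in A. None of 19 genes from 1500 to under 3000 nt was highest in A (18.5% of all genes), and none of 12 longer genes (10.4%). The median log2 ratio of F to A was -0.16 in the short class, 1.49 in the middle class and 1.24 in the long class. The short class was split. The 6 genes above lay below 0, while Ctss (1.97), Ly86 (1.86), Hpgds (1.53), Rnase4 (1.37) and C1qc (0.99) lay above it. Of the 11 short genes 3 were higher with depth, against 5.88% of all genes of that length. Ctss, Ly86, Hpgds and Rnase4 were named after their values were seen. For F to C it was 0.51, 0.50 and 0.50, and 36 of all 44 genes had more FPKM in F. The median of all genes tested was also above 0 there, at 0.11, and their share with more FPKM in F was not counted.

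**Figure D4:**
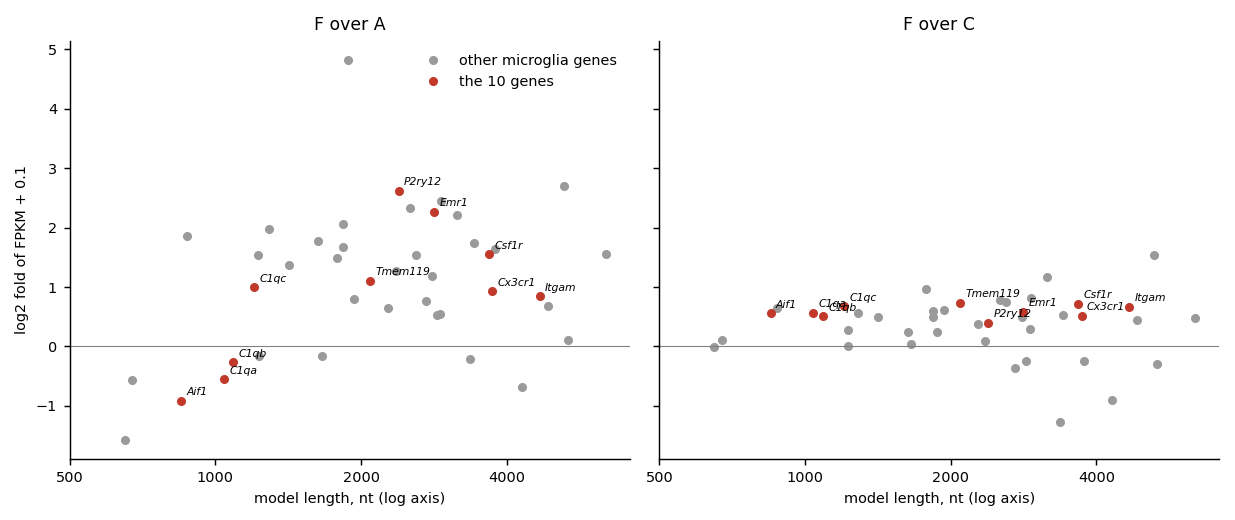
Log2 fold of FPKM + 0.1 between F and A (left) and between F and C (right) against model length (x axis, log scale) for the 10 genes (red, named) and the other microglia genes (grey). Against A the short genes Aif1, C1qa and C1qb fall below 0 and P2ry12 and Emr1 lie above 2, while against C all 10 genes lie between 0.40 and 0.73. The highest grey point on the left is Gpr34, not listed in A and set to 0 there, whose place depends on the pseudocount.

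Of the ligands that act on these receptors, none passed the test. Csf1, a ligand of Csf1r, had 2.71 FPKM in A, 4.57 and 2.81 in B1 and B2, and 2.59, 2.47, 3.76 and 8.47 from C to F (slope 0.21 ± 0.11, SE; limma adjusted p = 0.192). Il34, the other ligand of Csf1r and mostly neuronal, had 45.8 FPKM in A, 39.3 and 33.7 in B1 and B2, and 41.6, 36.8, 30.3 and 30.5 from C to F (slope -0.10 ± 0.046, SE; limma adjusted p = 0.157). Cx3cl1, the neuronal ligand of Cx3cr1, had 218 FPKM in A, 345 and 242 in B1 and B2, and 262, 285, 312 and 280 from C to F (slope 0.052 ± 0.056, SE; limma adjusted p = 0.523). Csf1 was thus highest in F and Il34 in A, while Cx3cl1 was highest in one library of segment B. Il34 has a short model (675 nt) and Csf1 a long one (4176 nt), and the part of model length in this was not tested. Tgfb1, a cytokine that maintains microglia, lay between 1.06 and 2.24 FPKM (slope -0.0034, limma adjusted p = 0.98), and its receptor chains Tgfbr1 and Tgfbr2 had slopes of 0.41 and 0.13 (limma adjusted p = 0.0853 and 0.255).

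Among the inhibitory pairs, Cd47, the signal that restrains engulfment, rose from 25.6 FPKM in A and 32.7 and 49.5 in B1 and B2 to 47.1, 44.9, 71.2 and 74.4 from C to F (slope 0.27 ± 0.061, SE; limma adjusted p = 0.0268). Its receptor Sirpa, which neurons also make, had 66.7 FPKM in A and 124 in E (slope 0.13, limma adjusted p = 0.101). Cd200, a neuronal ligand, had 8.53 FPKM in A and 29.1 in F (slope 0.30, limma adjusted p = 0.0508), and its receptor Cd200r1 stayed between 0.0695 and 0.361 FPKM (-0.18, 0.282). Of the myeloid adaptors and factors, Irf8, a transcription factor of microglia, rose from 0.757 FPKM in A to 1.62 in F (slope 0.21 ± 0.059, SE; limma adjusted p = 0.0499). Spi1 (PU.1) had 0.672 FPKM in A and 1.41 in F (slope 0.15, limma adjusted p = 0.215), and Itgb2, the beta chain that pairs with Itgam, had 0.265 and 1.27 (0.28, 0.1). Trem2, a lipid receptor, and its adaptor Tyrobp, both with short models (1088 and 562 nt), were highest in A at 13.1 and 12.04 FPKM and reached 8.91 and 9.65 in F (slopes -0.071 and 0.0045, limma adjusted p = 0.59 and 0.974). In all, 2 of the 15 partner genes were higher with depth, a share near the 12.4% of all genes tested. None was lower, against 2.54% of all genes. The median slope was 0.13, beside 0.076 for all genes. That count of 2 was 1 without A, B1, B2, C or D, and 0 without E, without F, without A and B2 together or after the median of ratios.

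**Figure D5:**
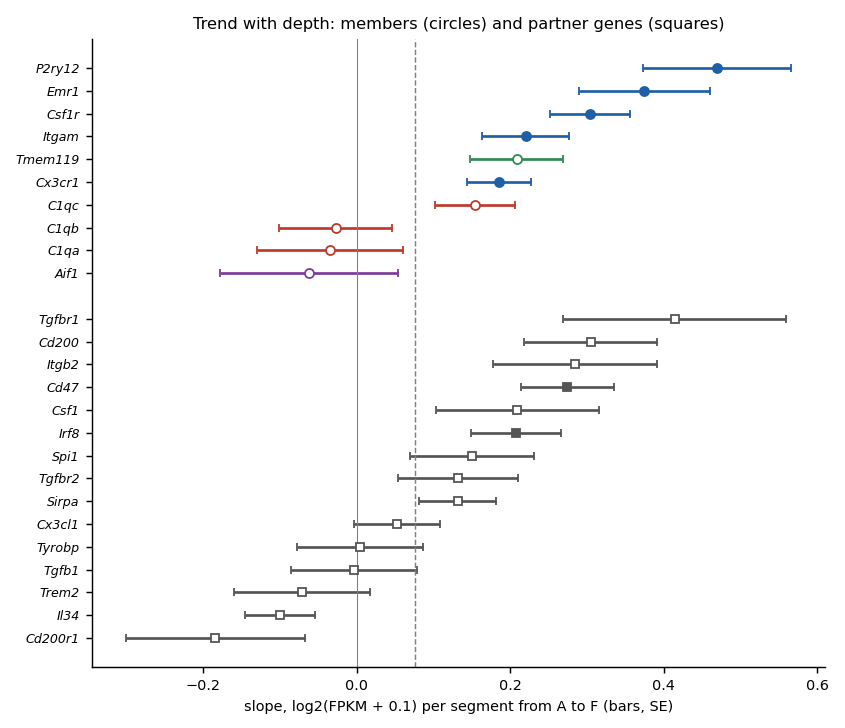
Slope of log2(FPKM + 0.1) per segment (x axis) with its SE (bars) for the 10 genes (circles, coloured by role) and the 15 partner genes (squares), filled where the limma adjusted p was at most 0.05; the solid line marks 0 and the dashed line the median of all genes, 0.076. The 5 receptors are filled, at 0.19 to 0.47, and of the partners Cd47 and Irf8 are filled.

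Beyond C1q, the genes of the complement cascade ranged widely in level. Csmd1, an inhibitor of the cascade named after its values were seen, had the highest mean of the list at 6.48 FPKM, followed by C1ra at 3.99 and Masp1 at 3.78. Of 30 genes of the cascade 25 were listed in at least 1 library and 17 had a mean of 0.1 FPKM or more, and C3, the central component, did not reach it, with at most 0.0574 FPKM. None was lower with depth, and the median slope was 0.030. Masp1, a protease of the lectin pathway, had 0.735 FPKM in A and 6.03 in F (slope 0.36, limma adjusted p = 0.0983), and Cr1l, a regulator of C3 cleavage, had 1.32 and 1.48 (0.15, 0.279). C1ra, a protease of the C1 complex, was highest in B1 at 7.90 FPKM against 1.34 in A and 1.82 in F (slope -0.15, limma adjusted p = 0.578). Cfp (properdin), with a short model of 401 nt, had 7.60 FPKM in A and 1.12 to 3.41 elsewhere (slope -0.35, limma adjusted p = 0.125). Serping1, the inhibitor of C1 (1768 nt), had 4.64 in A and 0.342 to 0.659 elsewhere (slope -0.41, limma adjusted p = 0.139).

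Markers of other cell types differed between segments as well, and their part in the results was not tested. The 9 leptomeningeal genes summed to 39.9 FPKM in A and 4.95 to 7.87 elsewhere, 8 of them were highest in A, led by Igf2 (17.8 FPKM in A, 2.57 to 4.84 elsewhere) and Slc6a13 (7.27 in A, 0.368 to 0.761 elsewhere), and 0 passed the trend test in either direction. The 10 genes of border macrophages, which also express C1q and Csf1r, summed to 3.22 FPKM in A and 1.05 to 1.44 elsewhere. Stab1 made up the largest part (1.17 in A, 0.422 to 0.784 elsewhere), and Pf4 had 0.535 in A and 0.0332 to 0.191 elsewhere. The defining Mrc1, Cd163 and Lyve1 stayed at or under 0.198 FPKM, with means too low for the trend test. They too were highest in A, at 0.109, 0.122 and 0.198 FPKM, as were F13a1 and Cbr2. Ms4a7, Clec10a and Folr2 were not highest in A. Blood leukocyte genes were near 0, with a sum of 0.808 FPKM in A and 0.0502 to 0.455 elsewhere over 10 genes, of which S100a9 (at most 0.256) and Cd79a (0.377 in A, at most 0.0479 elsewhere) had the most. The 12 oligodendrocyte genes all rose with depth, summing to 334 FPKM in A and 12710 in F, with Mbp from 172 to 6954, and 7 of them passed without A and B2.

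Of 10 astrocyte genes 1 was higher with depth (Aqp4, a water channel, 4.95 FPKM in A and 27.7 in F; 0 passed without A and B2), and the pair of highest level, Aldoc (421 FPKM in A, 296 in F) and Slc1a2 (149 and 315), ran in opposite order. Of 10 endothelial genes 0 passed in either direction, with Cldn5 at 51.0 FPKM in A and 15.8 to 29.5 elsewhere and Slco1c1 at 10.4 to 15.0. Of 10 neuronal genes 0 were higher and 1 was lower (0 without A and B2), namely Rbfox3, a splicing factor of neurons, with 337 FPKM in A and 107 in F (slope -0.32, limma adjusted p = 0.0128). Snap25 (490 FPKM in A, 1115 to 1658 elsewhere) and Syp (526 in A, 615 to 953 elsewhere) were both lowest in A, whereas Nefl and Nefm, neurofilament chains, were lowest in F, at 74.5 and 38.03 FPKM. Aqp4, Rbfox3, Nefl and Nefm were named after their values were seen.

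The genes most like the mean standardised profile of the 10 genes, by Pearson's r over the 7 libraries among 11401 others measured to within 50% of their mean, were Ctsa, Lix1l, B4galt3, Gsn, Gm12906, Padi2, ENSMUSG00000034953, Ppox, ENSMUSG00000084827 and Gm2423, with r of 0.977 to 0.989. Ctsa, a lysosomal carboxypeptidase, had 34.1 FPKM in A, 32.4 and 28.1 in B1 and B2, and 35.8, 35.1, 41.1 and 53.4 from C to F, and Gsn, the actin-severing gelsolin, 12.3, 13.1, 9.72, 17.3, 20.8, 39.9 and 104.8. None of the 10 was in a list of microglia genes. With 7 points that share library depth and composition, such values of r only describe. Of the members themselves, Itgam (0.942), Cx3cr1 (0.921), Csf1r (0.92), Tmem119 (0.908) and C1qc (0.865) lay close to their common profile, P2ry12 and Emr1 stood at 0.638 and 0.673, and C1qa (0.28), C1qb (0.258) and Aif1 (0.0799) did not follow it. Each member is itself part of the mean profile with which it is compared, so these values only describe.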

How the data were processed

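Per the labels, reads were aligned to mm9 with TopHat 1.0.13 and quantified by Cufflinks 0.8.3. The FPKM deposited by the authors, with 95% bounds, cover Ensembl models and de novo loci; transcripts also carry a deposited coverage and a fraction, the coverage serving only to estimate depth and the fraction not being used. Genes not listed in a library were set to 0. GENCODE M21 was used by identifier alone, for symbols, GC content, strand and the assignment of transcripts to genes. Model length is the deposited length of the transcript with the highest mean FPKM among those M21 assigns to the gene, and GC content is that of the same transcript. Slopes were fitted with limma 3.58.1 in R 4.3.3 on log2(FPKM + 0.1) over genes whose mean reached 0.1 FPKM, and 21 other settings were tried. On simulated data the fit called 65 of 100 genes with a slope of 0.4, 1 of 100 with 0.2 and 0 of 17644 unchanged genes. The simulated noise was drawn independently for each gene and library, with a spread taken from B1 and B2. It held no difference shared by many genes of a library, such as one by model length. These rates therefore do not cover the differences between libraries given above. The p-values rest on 5 residual degrees of freedom, with the 7 libraries treated as independent although they came from the same mice. Named were all members and partners, the 3 highest and 3 lowest slopes among complement and other microglia genes of at least 1 FPKM, the 2 most abundant markers of each other cell type and the 10 most similar genes. A few genes that this rule names are not reported here. Members and lists were chosen with earlier results of these data known.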

Additional observations from a re-analysis of the deposited data

How the results depend on the processing

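No paired analysis was possible because replicate numbers exist for segment B alone. The cause of the differences between settings was not tested. Genes higher and lower with depth numbered 749 and 724 after the median of ratios, 960 and 836 within length bins, 1011 and 816 within joint length and GC bins, and 100 and 52 without A and B2. The joint test of a linear and a quadratic term, which also calls curved profiles, passed 5060 genes with a positive and 1461 with a negative linear term, C1qa and C1qb among the latter with slopes near 0. Higher genes numbered 1193 with totals without mitochondrial genes and 897 within GC bins. Leaving out 1 library gave 495 to 2225 higher and 123 to 581 lower. Of the 10 genes, 2 were higher after the median of ratios, 3 without mitochondrial genes, 1 within length bins, 3 within joint bins, 0 without A and B2, and 1 to 7 without 1 library. Other microglia genes higher with depth numbered 8 after the median of ratios, 8 within length bins, 0 without A and B2, and 1 to 13 without 1 library. The slopes of C1qa and C1qb turned to 0.038 and 0.025 in joint bins; without A and B2 those of C1qa, C1qb and Aif1 were 0.10, 0.092 and 0.21, and without 1 library they ran from -0.16 to 0.12, -0.15 to 0.080 and -0.16 to 0.13, positive without A alone. By intervals, 5562 genes were higher in F than A and 6544 in A than F after the median of ratios; widened intervals gave 2622 higher in B1, 2515 in B2, 3161 in F than C and 1868 in C than F, and totals without mitochondrial genes 2682 higher in B1. The complement minus receptor difference, F minus A, was -1.13 with a pseudocount of 1, -0.87 within length bins and -0.34 within joint bins. It was -1.69 with a pseudocount of 0.01 and -1.62 after the median of ratios, which scales both groups alike. Leaving out B1 or B2 cannot change it, and no setting could leave out A, so these settings do not test its dependence on that library. Length bins, joint bins, the fit without A and B2, and F against C were chosen after the data were seen.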
